A study of Mus musculus with 36 samples.

Results

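Il10, the gene of the anti-inflammatory cytokine interleukin 10 (IL-10), was followed with 6 genes known from type 1 regulatory (Tr1) T cells, namely Maf, Prdm1, Ahr, Eomes, Il27ra and Il10ra. The 7 genes were taken by gene name from a table of 56748 genes, of which 37611 had at least 1 count in the libraries used. RNA-seq had been made from CD4+ T cells of 2 mutant mouse lines on a mixed 129/Sv and C57BL/6 background, both compared with wild-type (WT) littermates, and donor mice were 6 to 12 weeks old. In the HP1α line Cbx5 was deleted in the germ line with CMV-cre, so that other cells of the donor lacked HP1α too, whereas in the HP1γ line floxed Cbx3 was deleted with Cd4-cre, that is in T cells. Both genes encode heterochromatin proteins that bind methylated histone H3.

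Each line gave WT and knock-out (KO) libraries under 3 conditions, which made 12 groups of 3 libraries. Naive cells (CD4+ CD62L+ CD44-/low) were never grafted. The conventional CD4+ T cells called Tconv had spent 3 weeks in lethally irradiated CD45.1 hosts given C57BL/6 and B6D2F1 bone marrow, after which TCRVβ6+ donor cells were sorted from the spleen. Tconv with Treg came from hosts that were also given expanded WT regulatory T cells (Treg), which carried Thy1.1 and were removed by a Thy1.1- gate. The Treg were WT in all 4 groups that received them. They were given at various ratios to Tconv, and the ratio is not stated for each library. The paper reports that, at the ratio of its HP1γ experiment, Treg did not effectively repress the response of WT cells. The HP1γ KO group with Treg had only 2 usable libraries, and 35 libraries were used. Its replicate 3 was left out for abnormal GC content, share of reads in exons and bias between transcript ends. That exclusion is the study's own. Whether the replicates came from separate hosts or donors is not stated for each library, so p-values measure the spread between these libraries.

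Tr1 cells are CD4+ T cells that make IL-10 without depending on the Treg factor FOXP3. IL-27, read by the receptor chain encoded by Il27ra, is known to induce the transcription factor MAF and the ligand-activated aryl hydrocarbon receptor (AHR, from Ahr), which act together on Il10. The repressor BLIMP-1 (from Prdm1) and the T-box factor EOMES have been tied to Il10 in effector and Tr1 cells, including after allogeneic bone marrow transplantation. Il10ra encodes the ligand-binding chain through which T cells sense IL-10 themselves.

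In GRCm39, the build of the counts, GENCODE places Il10 (ENSMUSG00000016529) at chr1:130947581-130952711 on the plus strand with no overlapping gene. Il27ra (ENSMUSG00000005465) and Maf (ENSMUSG00000055435) lie on the minus strand of chromosome 8, at chr8:84756916-84769253 and chr8:116409632-116434579. Il10ra (ENSMUSG00000032089, minus strand) is at chr9:45165132-45180563 and Eomes (ENSMUSG00000032446, plus strand) at chr9:118307280-118315200. Prdm1 (ENSMUSG00000038151, minus strand) is at chr10:44313171-44404497 and Ahr (ENSMUSG00000019256, minus strand) at chr12:35547973-35585057. Il27ra overlaps the coding gene Palm3 on the opposite strand, and Maf, Ahr and Eomes overlap opposite-strand non-coding RNAs. Il10ra overlaps the opposite-strand processed pseudogene Gm20612 and the microRNA gene Mir7086 on its own strand. Where counting ignored strand, reads of opposite-strand genes could not be told apart from those of the members.

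RefSeq promoter windows, from 250 bases before the transcription start to 50 after it, were at hand for 2 of the 7 genes, Eomes and Prdm1. They are shown because Eomes followed Il10 most closely in the values below, and because the Prdm1 window held letter matches to the AHR response element. Both windows, extracted from GRCm38.p6, matched GRCm39 at 1 place each, chr9:118307007-118307306 (plus strand) and chr10:44334695-44334994 (minus strand, at a start inside the GENCODE gene). Capitals mark the motifs found.
Eomes: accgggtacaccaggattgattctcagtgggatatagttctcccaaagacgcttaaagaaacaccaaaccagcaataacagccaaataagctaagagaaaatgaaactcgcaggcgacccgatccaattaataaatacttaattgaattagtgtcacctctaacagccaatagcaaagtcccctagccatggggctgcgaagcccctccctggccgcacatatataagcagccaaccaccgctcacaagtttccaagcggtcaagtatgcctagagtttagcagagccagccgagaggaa
Prdm1: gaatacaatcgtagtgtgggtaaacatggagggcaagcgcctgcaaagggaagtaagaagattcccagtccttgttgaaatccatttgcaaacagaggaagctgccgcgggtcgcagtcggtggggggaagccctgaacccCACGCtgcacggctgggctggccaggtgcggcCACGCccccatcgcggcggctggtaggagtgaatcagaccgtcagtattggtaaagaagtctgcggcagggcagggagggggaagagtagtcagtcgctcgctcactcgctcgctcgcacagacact
The letters searched on both strands were GCGTG, the core of the AHR response element, TGCTGA, a MAF recognition element core, and GAAAG, the core of the element bound by BLIMP-1 and interferon regulatory factors. The Prdm1 window held GCGTG at 2 places, both on the opposite strand, 109 and 77 bases before the start, and neither of the other motifs. The Eomes window held none of the 3. Of 32851 windows of this length, 32.4% held GCGTG, 19.5% TGCTGA and 57.3% GAAAG.

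Libraries held 37029519 to 63042245 estimated counts (median 46844690), so that 3 counts, taken as the limit that a count of 0 allows, correspond to 0.0451 to 0.0819 CPM (counts scaled to library size). No 2 replicates held identical values. The targeted genes were lower in KO libraries, with Cbx5 at 9.2 to 19.7 CPM in HP1α KO against 18.5 to 61.8 CPM in WT, and Cbx3 at 60.5 to 80.8 CPM in HP1γ KO against 79.1 to 199 CPM in WT. All 6 CD4 T cell markers averaged 1 CPM or more in each group. Levels are given in CPM after TMM scaling over the 35 libraries, differences as log2 fold changes with their standard error (SE) from edgeR's quasi-likelihood test, and a gene was called at a Benjamini-Hochberg adjusted p under 0.05 over all genes tested with an absolute log2 fold change above 1.

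Il10 was close to undetected in naive cells and reached its highest levels in Tconv that had met Treg. In naive libraries it had 0 to 4 estimated counts, at most 0.091 CPM, and 6 of the 12 naive libraries were at 0. WT Tconv of the HP1α line had 2.87, 2.41 and 0.163 CPM, and HP1α KO Tconv 0.31, 0.858 and 1.54 CPM. In Tconv with Treg of the HP1α line, WT libraries had 52.7, 44.8 and 124 CPM, whereas HP1α KO libraries had 3.16, 5.21 and 12.3 CPM. The WT libraries all lay above the KO libraries, and replicate 3 was the highest of the WT.

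In the HP1γ line the order of WT and KO was the other way round. WT Tconv had 2.01, 4.03 and 2.45 CPM of Il10 and HP1γ KO Tconv 9.89, 18.3 and 27.8 CPM. With Treg, WT libraries had 15.8, 4.65 and 1.46 CPM, and the 2 HP1γ KO libraries 222 and 21.3 CPM. The KO libraries lay above the WT libraries in both conditions, but those with Treg lay far apart, with replicate 1 the highest of all 35.

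**Figure D1:**
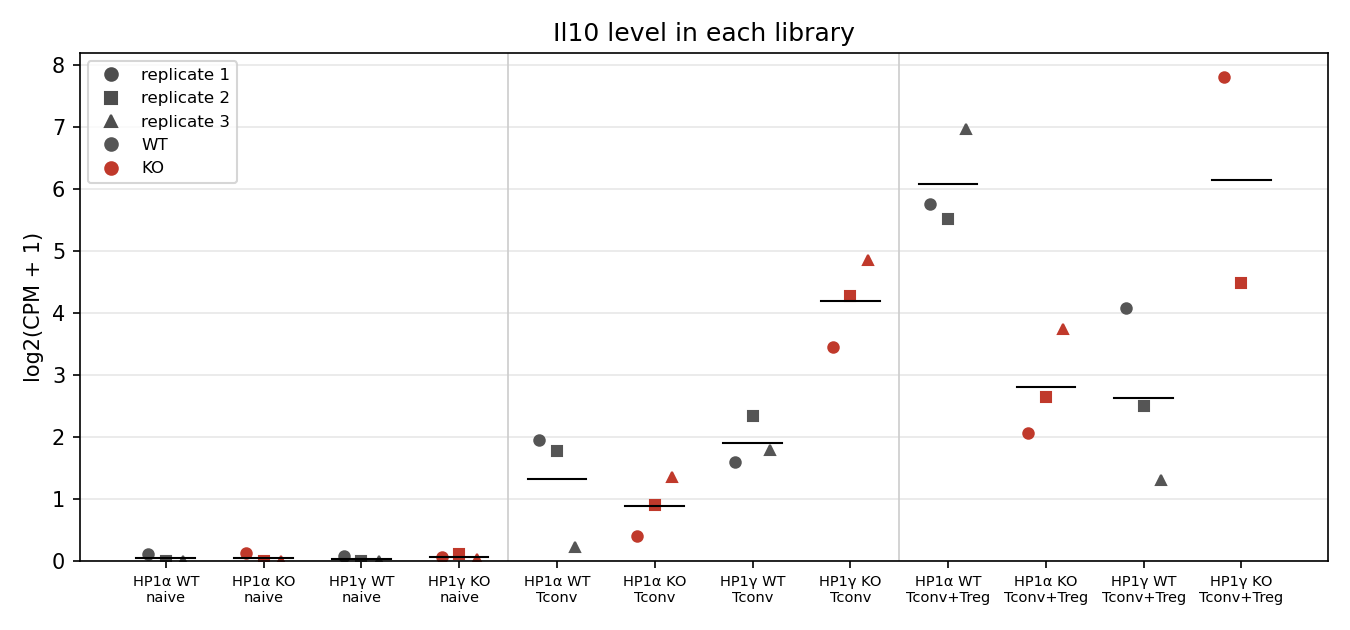
Il10 level, log2(CPM + 1), in each of 35 libraries (circle, square and triangle for replicates 1, 2 and 3; grey WT, red KO of each line; black lines, group means of the log2 values). HP1α WT and HP1γ KO Tconv with Treg stand highest, with group means of 73.9 and 122 CPM, and the naive libraries lie at or near 0.

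Ordered by mean, the Il10 level ran from HP1γ KO Tconv with Treg (122 ± 142 CPM, SD, n = 2) over HP1α WT Tconv with Treg (73.9 ± 43.8, n = 3), HP1γ KO Tconv (18.7 ± 8.95), HP1γ WT Tconv with Treg (7.31 ± 7.54), HP1α KO Tconv with Treg (6.87 ± 4.77), HP1γ WT Tconv (2.83 ± 1.06), HP1α WT Tconv (1.81 ± 1.45) and HP1α KO Tconv (0.902 ± 0.616) to the naive groups. Of the 11 pairs of neighbours in this order 9 overlapped in their libraries. The exceptions were the step from HP1α WT Tconv with Treg to HP1γ KO Tconv and the step from HP1α KO Tconv to the naive groups.

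Unlike Il10, the other members were detected in each naive library. Il27ra was at 229 to 312 CPM in naive libraries and at 195 to 417 CPM in grafted ones, and all 11 neighbours in its order overlapped. Naive libraries also held Il10ra (8.29 to 35.9 CPM), Prdm1 (4.17 to 12.2 CPM), Eomes (3.01 to 6.88 CPM), Maf (1.34 to 7.07 CPM) and Ahr (1.2 to 3.73 CPM). In the HP1α line, replicate 1 of the naive cells differed from the other two in both genotypes, with Maf at 7.07 (WT) and 6.87 CPM (KO) against 1.34 to 2.35 CPM.

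In grafted cells the factors Maf and Eomes also varied with Treg in the HP1α line, and Ahr did so in its WT cells. Maf was at 78.9 to 126 CPM in WT Tconv of the HP1α line, and with Treg at 278, 230 and 562 CPM in WT and at 116, 128 and 143 CPM in KO. Eomes was at 11 to 16 CPM in the same WT Tconv, and with Treg at 128, 81.3 and 264 CPM in WT and at 29.3, 43.9 and 39.8 CPM in KO. Ahr went the other way, from 53.4, 40.6 and 36.9 CPM in WT Tconv to 10.5, 18.7 and 10.2 CPM in WT Tconv with Treg. In HP1α KO the Ahr levels overlapped, at 41.2, 18.1 and 36.2 CPM without Treg and 15.7, 33.7 and 25.2 CPM with it. HP1α WT replicate 3 with Treg, the highest of its line in Il10, was thus also the highest of all 35 in Maf and Eomes, and the lowest of all in Il27ra (195 CPM).

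Among HP1γ libraries with Treg, KO replicate 1 stood apart in the same way. It held 246 CPM of Maf, 230 of Eomes and 158 of Prdm1, whereas KO replicate 2 held 143, 43.7 and 60.8 CPM. The WT libraries had 124, 88.8 and 131 CPM of Maf, 58.6, 16.4 and 9.08 CPM of Eomes, and 69, 61 and 44.7 CPM of Prdm1. Prdm1 was highest in the HP1γ line at large, where grafted libraries ran from 44.7 to 158 CPM against 20.7 to 64.1 CPM in the HP1α line, with lines, mice and their grafts not told apart in this design.

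**Figure D2:**
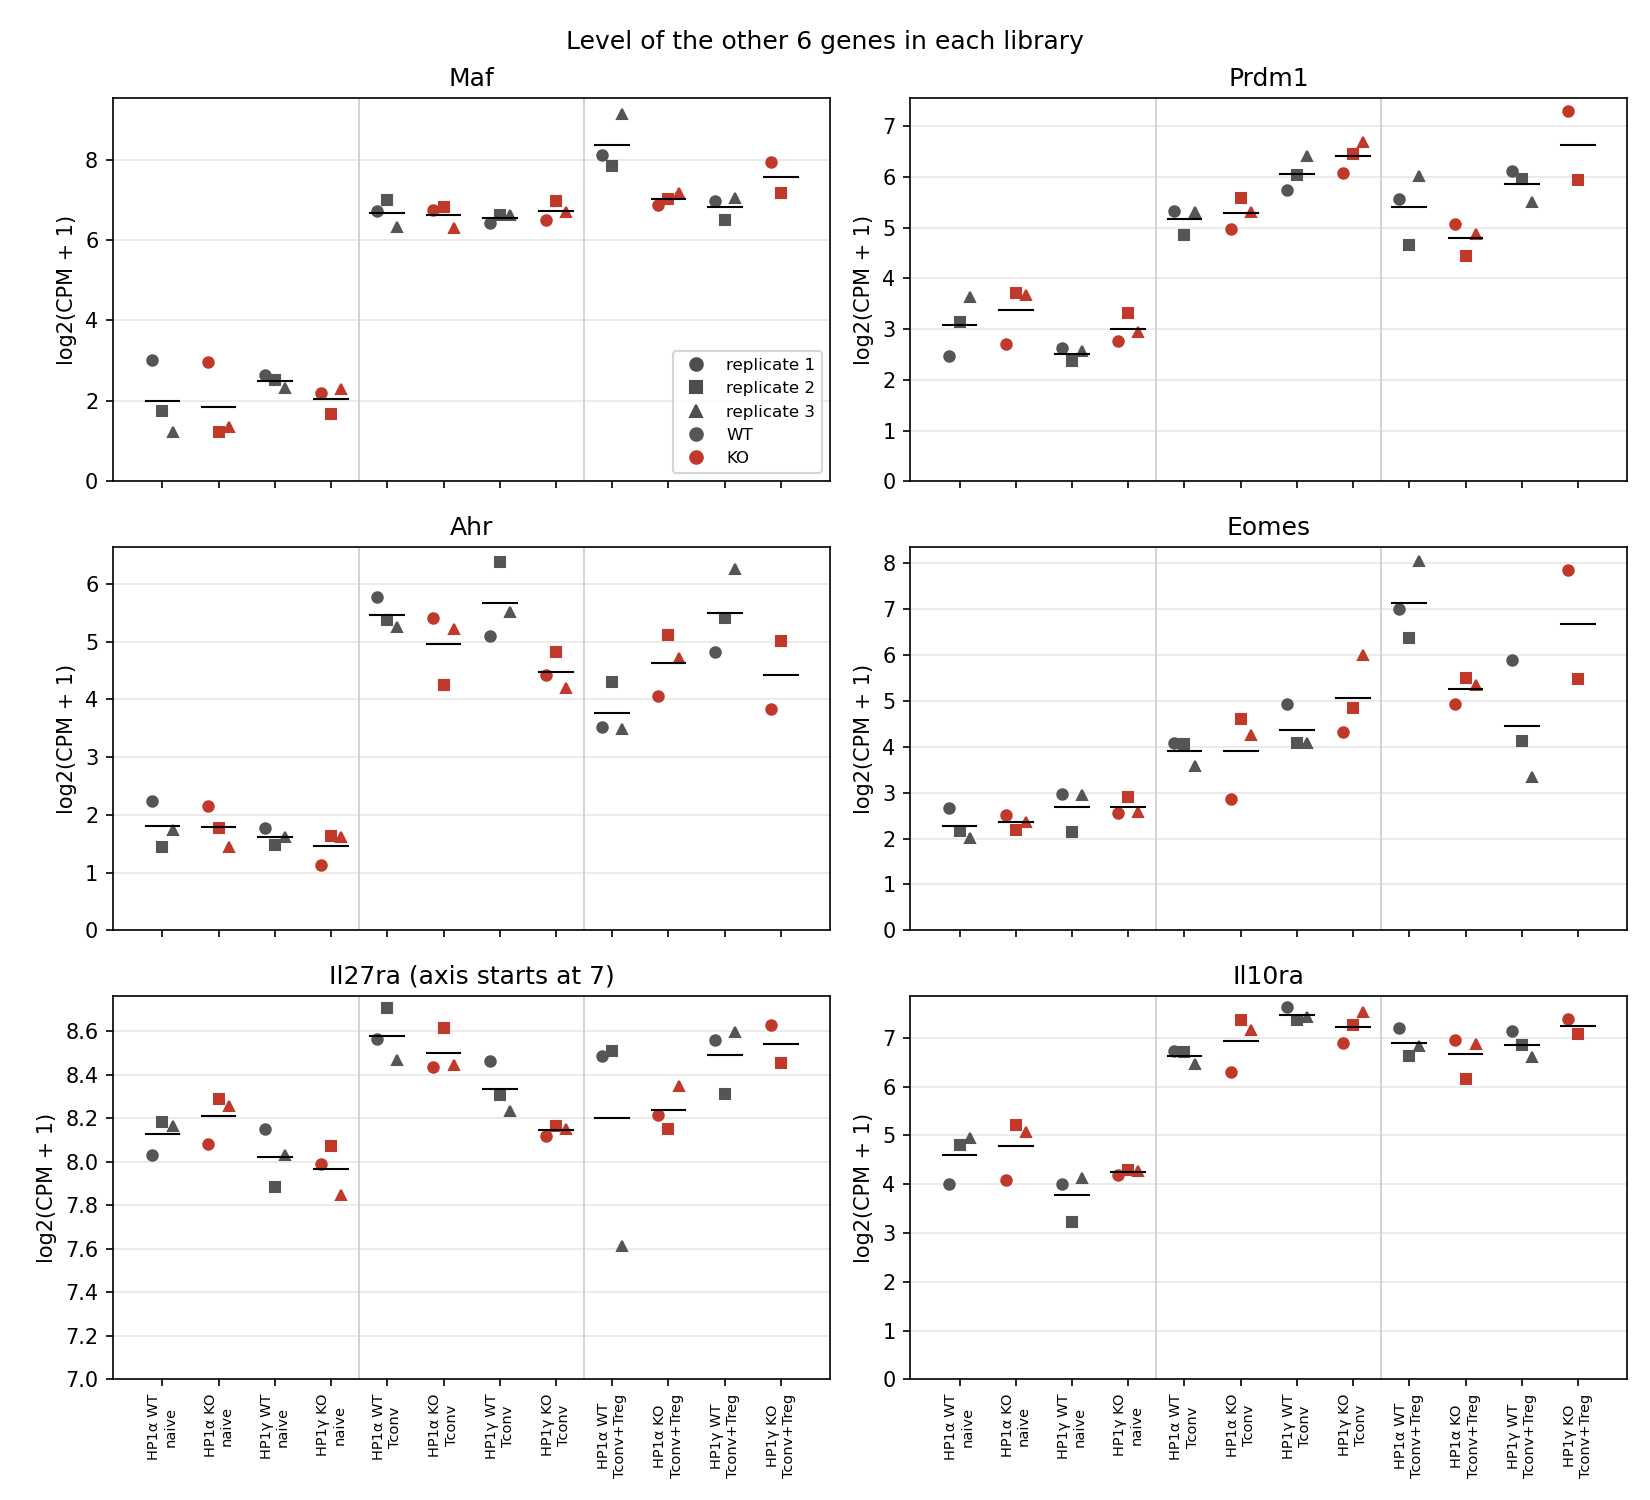
Levels of Maf, Prdm1, Ahr, Eomes, Il27ra and Il10ra, log2(CPM + 1), in each of 35 libraries, drawn as for Il10; the Il27ra axis starts at 7. Maf and Eomes are highest in HP1α WT Tconv with Treg (means 357 and 158 CPM), where Ahr is lowest among grafted groups (13.2 CPM).

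Per kilobase of exon, which allows levels of different genes to be set side by side, HP1α WT Tconv with Treg held 73.6 CPM of Il27ra, 56.4 of Il10, 38.5 of Maf, 38 of Eomes, 27.2 of Il10ra, 7.99 of Prdm1 and 2.13 of Ahr. In the matched KO the same quantity was 72.5 for Il27ra, 5.24 for Il10, 13.9 for Maf, 9.06 for Eomes, 23.7 for Il10ra, 4.86 for Prdm1 and 4.02 for Ahr. Il27ra thus had nearly the same level per length in both genotypes, Ahr a higher one in the KO, and the others a lower one.

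Grafted Tconv were compared with the naive state first. From naive cells to Tconv, Maf, Prdm1, Ahr, Eomes and Il10ra rose in all 4 comparisons (both lines, both genotypes) by edgeR. That made 5 of the 6 members other than Il10 in each. Over all genes tested, 12.9%, 12.4%, 15% and 15.7% were called higher in these 4 comparisons. Neither a fold nor a call is given for Il10, since the naive libraries were at or near the limit of 3 counts and the gene could pass the filter on low counts only through Tconv.

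Maf had log2 fold changes of 4.85 (SE 0.685, adjusted p = 0.00254), 4.94, 4.32 and 5.03 in HP1α WT, HP1α KO, HP1γ WT and HP1γ KO, and Ahr 4.07 (SE 0.303, adjusted p = 2.45e-05), 3.67, 4.67 and 3.63. Il10ra (2.03, 2.19, 3.74 and 3.1) and Prdm1 (2.15, 1.98, 3.83 and 3.61) were called in each, as was Eomes (1.85, 1.95, 1.85 and 2.77). In HP1α KO the call of Eomes was lost without naive KO replicate 2 (adjusted p = 0.0554) or 3 (adjusted p = 0.0501). Il27ra had log2 fold changes of 0.46, 0.3, 0.31 and 0.19, below the threshold on the fold. The tested genes as a whole had medians of -0.04 to 0.02. The naive and Tconv groups also enter comparisons below, which share these libraries.

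Whether Treg altered the program in grafted Tconv was read from Tconv with and without Treg. In HP1α WT cells Il10, Maf and Eomes rose and Ahr fell with Treg, whereas Prdm1, Il27ra and Il10ra were not called. Thus 4 of 7 members were called (5.96% of all genes tested), 3 higher (3.54%) and 1 lower (2.43%). The same 4 did not overlap between the groups (34.8% of all genes). Il10 held 105, 114 and 6 estimated counts in WT Tconv and needed the libraries with Treg to pass the filter on low counts. Its place in these counts is therefore no result, and its fold and p below are given as description. A lower share of cells that express a gene and less of its RNA per cell cannot be told apart in such bulk libraries.

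Il10 had a log2 fold change of 5.38 (SE 0.871, adjusted p = 0.013), Eomes 3.52 (SE 0.452, adjusted p = 0.00558), Maf 1.83 (SE 0.365, adjusted p = 0.0261) and Ahr -1.69 (SE 0.285, adjusted p = 0.0145) in HP1α WT. Eomes kept its call whichever library was left out. Il10 lost it without WT Tconv replicate 1 (adjusted p = 0.0634) or 2 (0.0643). Maf lost its call without WT Tconv replicate 1 (0.122), 2 (0.0781) or 3 (0.139) or WT Tconv with Treg replicate 1 (0.0523), and Ahr without the same 4 libraries (0.0768, 0.0601, 0.0586 and 0.0568). Without replicate 3 with Treg, the library that stood apart, the log2 fold change was 4.76 for Il10 and 1.33 for Maf, and both remained called.

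In the other 3 backgrounds no member was called by edgeR. In HP1α KO (0.44% of all genes called) Il10 had a log2 fold change of 2.93 (SE 0.714, adjusted p = 0.127), and 4 members had an unadjusted p under 0.05 (15.8% of all genes). Il10, Maf, Eomes and Il27ra did not overlap between the groups there (4 of 7, against 22.7% of all genes). DESeq2 called Il10 alone among the members (log2 fold change 2.93, adjusted p = 3.58e-05), in a comparison in which it called 2.5% of all genes.

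In HP1γ WT (0.0126% called) Il10 had a log2 fold change of 1.37 (SE 0.841, adjusted p = 0.806), and 1 member had an unadjusted p under 0.05 (6.89% of all genes). Only Il10ra did not overlap (13.4% of all genes), with 140, 114 and 96.2 CPM with Treg against 198, 163 and 170 CPM without. In HP1γ KO (0% called) the log2 fold change of Il10 was 2.7 (SE 0.936, adjusted p = 0.608). There 3 members had an unadjusted p under 0.05 (7.62% of all genes), and Maf and Il27ra did not overlap (24.4% of all genes). Without replicate 1 with Treg the log2 fold change of Il10 was 0.1 in HP1γ WT and 0.18 in HP1γ KO. DESeq2 called no member in either HP1γ comparison.

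KO and WT cells of the HP1α line were then compared within each condition. In naive cells 0 of 6 tested members were called (0% of all genes, with no member at an unadjusted p under 0.05), and in Tconv 0 of 7 (0.103%), again with no member at an unadjusted p under 0.05 and none without overlap (15.3% of all genes). DESeq2 called no member in these. In naive cells equal replicate numbers met the rule for pairs given below, and a fit with a block for them called no member either. Log2 fold changes of the members in Tconv ran from -0.99 for Il10 to 0.39 for Il10ra.

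In HP1α Tconv with Treg Il10, Maf and Eomes were lower in the KO and the libraries of the genotypes did not overlap (3 of 7 members, 21.5% of all genes), but none passed the test of edgeR (0.123% called). Il10 had a log2 fold change of -3.45 (SE 0.613, adjusted p = 0.086), Eomes -2.1 (SE 0.426, adjusted p = 0.112) and Maf -1.5 (SE 0.337, adjusted p = 0.136). Ahr was higher in the KO (15.7, 33.7 and 25.2 CPM) than in the WT (10.5, 18.7 and 10.2 CPM), with a log2 fold change of 0.9 (SE 0.353, adjusted p = 0.371). These 4 members had an unadjusted p under 0.05, as had 12.1% of all genes.

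DESeq2, the tool of the study, called Il10 (-3.46, adjusted p = 5.8e-08), Eomes (-2.1, adjusted p = 6.2e-05) and Maf (-1.5, adjusted p = 0.00128) in that comparison, where it called 3.83% of all genes. With each library left out in turn the edgeR value of Il10 lay between -4.16 and -2.83 and that of Eomes between -2.41 and -1.49. Maf lay between -1.73 and -0.99, the latter without WT replicate 3. Il27ra differed by -0.04 (SE 0.243) and Il10ra by -0.22 (SE 0.261), and the median over all genes tested was -0.01.

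In the HP1γ line no member was called in naive cells (0 of 6, 0.00669% of all genes called), in Tconv (0 of 7, 0.0437%) or in Tconv with Treg (0 of 7, 0%). In naive cells 1 member had an unadjusted p under 0.05 (5.78% of all genes). In Tconv Il10 was higher in the KO, with a log2 fold change of 2.75 (SE 0.449, adjusted p = 0.143), and Ahr lower, with 20.4, 27.2 and 17.3 CPM against 33.4, 82 and 44.8 CPM in WT and a log2 fold change of -1.28 (SE 0.353, adjusted p = 0.356). These 2 members had an unadjusted p under 0.05, as had 8.42% of all genes. Il10, Ahr and Il27ra did not overlap between genotypes (3 of 7, 13.9% of all genes). DESeq2 called Il10 (2.73, adjusted p = 1.15e-09) and Ahr (-1.3, adjusted p = 0.00421) and 1.43% of all genes.

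With Treg, Il10 had a log2 fold change of 4.06 (SE 1.25, adjusted p = 0.298) between HP1γ KO and WT, Maf 0.76 (SE 0.277, adjusted p = 0.365) and Eomes 2.29 (SE 0.952, adjusted p = 0.433). Il10 and Maf did not overlap (2 of 7, 29.4% of all genes) and had an unadjusted p under 0.05 (11.8% of all genes), and DESeq2 called no member. The 2 KO libraries decided the size of these values. Without KO replicate 1, Il10 had a log2 fold change of 1.53 and Maf one of 0.31. The paper, which used an earlier version of DESeq2, names Il10 among the genes more expressed in HP1γ KO Tconv with Treg. Why the DESeq2 fit here did not call it was not tested.

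**Figure D3:**
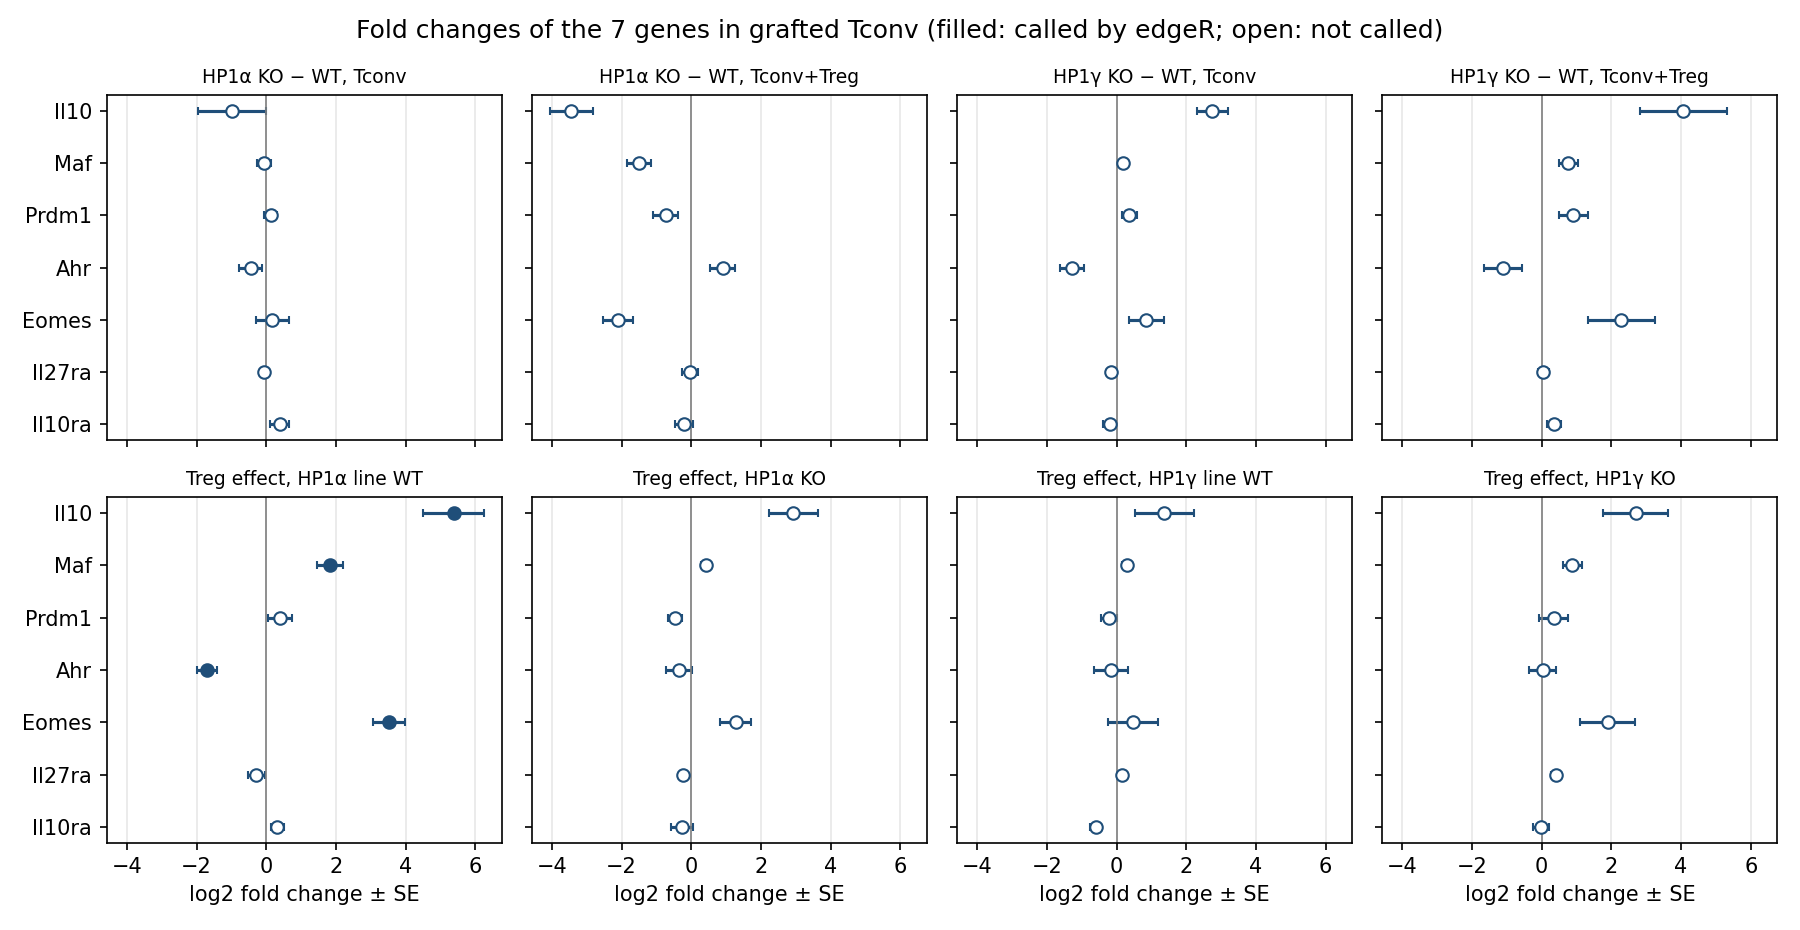
Log2 fold changes (points) with SE (bars) from edgeR for the 7 genes in 4 comparisons of KO with WT and 4 of Tconv with and without Treg; filled points were called. Il10, Maf, Ahr and Eomes were called with Treg in WT of the HP1α line, where Il10 passed the filter only with the libraries with Treg. Il10 spans -3.45 to 4.06 among the comparisons of KO with WT.

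Both lines were then set against each other in 1 model. The difference between KO and WT in Tconv with Treg was higher in the HP1γ line than in the HP1α line by 7.5 on the log2 scale for Il10 (SE 1.47, adjusted p = 0.0278) and by 2.25 for Maf (SE 0.493, adjusted p = 0.038). These 2 of 7 members were called by edgeR, beside 2.72% of all genes (1.78% in the same direction). Eomes had a difference of 4.37 (SE 1.1, adjusted p = 0.0641), Prdm1 1.64, Ahr -2.01, Il10ra 0.57 and Il27ra 0.08. DESeq2 called Il10, Maf, Eomes and Ahr, with 7.47% of all genes.

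The calls of Il10 and Maf in that comparison were sensitive to single libraries. That of Il10 was lost without replicate 1, 2 or 3 of HP1α KO (adjusted p = 0.0788, 0.0571 and 0.0631), replicate 1 of HP1α WT (0.0501), replicate 1 of HP1γ KO (difference 4.95, adjusted p = 0.171) or replicate 2 or 3 of HP1γ WT (0.0905 and 0.0631), all with Treg. That of Maf was lost without the same 7 libraries (0.0539 to 0.227) or replicate 1 of HP1γ WT (0.0705). Eomes was called without replicate 2 of HP1γ KO (0.0244) or replicate 1 of HP1γ WT (0.0296). With the left-out library put back neither Il10 (6.99, adjusted p = 0.114) nor Maf (2.72, adjusted p = 0.123) was called. The direction was the same in every one of these fits.

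The WT cells of the lines were also set against each other. The Treg effect was larger in WT of the HP1α line than in WT of the HP1γ line by 4 on the log2 scale for Il10 (SE 1.23, adjusted p = 0.133), 3.05 for Eomes (SE 0.866, adjusted p = 0.104) and 1.52 for Maf (SE 0.428, adjusted p = 0.101). No member was called by edgeR (1.56% of all genes), and 5 had an unadjusted p under 0.05 (15.7% of all genes). DESeq2 called Maf (1.55, adjusted p = 0.0126) and Eomes (3.08, adjusted p = 0.0422) with 4.54% of all genes. Maf was called without replicate 2 of HP1α WT with Treg (1.75, adjusted p = 0.0415) and Eomes without replicate 1 of HP1γ WT with Treg (4.19, adjusted p = 0.0133). This comparison shares WT libraries with that of the KO effects, and a line is here also a separate set of mice. The ratio of Treg to Tconv may have differed between the lines too. Line, set of mice and Treg ratio cannot be told apart in either comparison.

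The interaction of genotype and Treg within a line was not called for any member. In the HP1α line (0.139% of all genes called) it was -2.47 for Il10 (SE 1.13, adjusted p = 0.517), -2.25 for Eomes (SE 0.661, adjusted p = 0.231), -1.42 for Maf (SE 0.422, adjusted p = 0.239) and 1.35 for Ahr (SE 0.499, adjusted p = 0.379). There 3 members had an unadjusted p under 0.05, as had 9.74% of all genes. DESeq2 called Eomes (adjusted p = 0.025) and Maf (adjusted p = 0.0441) and 1.84% of all genes. In the HP1γ line (0% called, no member at an unadjusted p under 0.05, none called by DESeq2) all 7 values were positive, from 0.16 for Ahr to 1.42 for Eomes, with Il10 at 1.31 (SE 1.37), which turned to -1.22 without KO replicate 1 with Treg.

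Across the 23 grafted libraries, on the scale of log2(CPM + 1), Eomes followed Il10 with a Pearson r of 0.92 and Maf with 0.79, whereas Ahr had -0.69, Prdm1 0.46, Il27ra -0.3 and Il10ra 0.26. These are descriptions with no test. The libraries share lines, conditions and scaling. After each group mean was subtracted, r was 0.83 for Eomes, 0.64 for Prdm1, 0.57 for Maf, 0.46 for Il10ra, -0.07 for Il27ra and -0.39 for Ahr. Among the 9371 genes whose mean level was 5 CPM or more, Eomes would take rank 15 by its likeness to Il10, Maf 167, Prdm1 1043 and Ahr 8753.

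**Figure D4:**
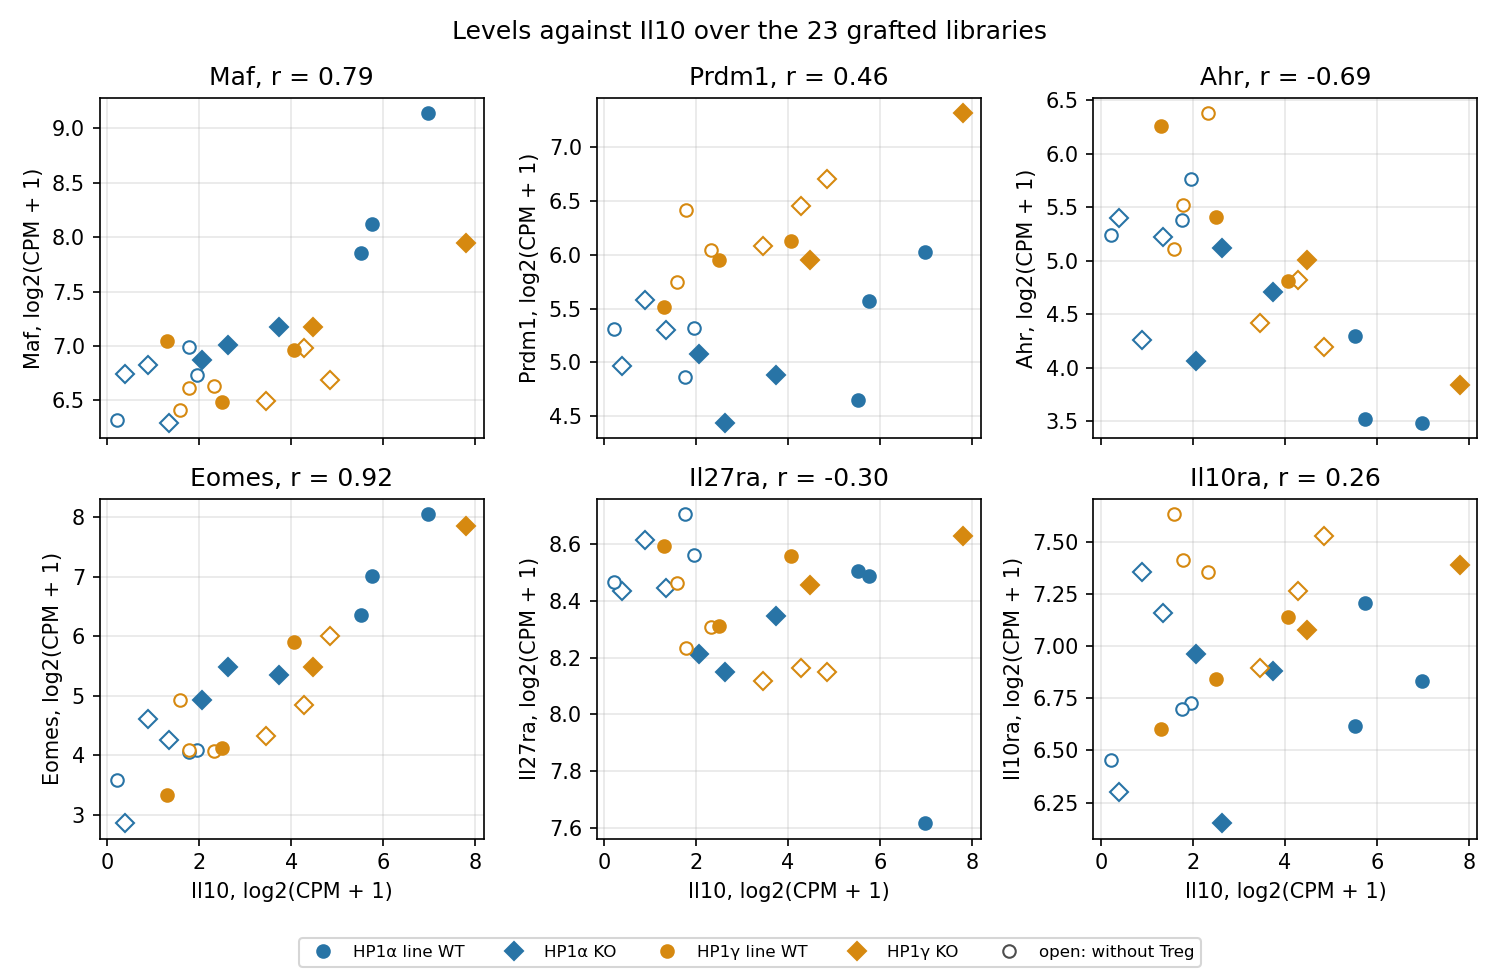
Level of each of the other 6 genes against Il10, log2(CPM + 1), in the 23 grafted libraries (blue HP1α line, orange HP1γ line; circles WT, diamonds KO; filled with Treg, open without), with Pearson r above each panel. Eomes (0.92) and Maf (0.79) rise along Il10, and Ahr (-0.69) goes down.

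The 8 genes most like Il10 over the grafted libraries were Adgrg1, an adhesion receptor (r = 0.95), the chemokine genes Ccl3 (0.94) and Ccl4 (0.93), the inhibitory receptor genes Lag3 (0.94) and Tigit (0.93), the regulator of G protein signalling Rgs16 (0.93), and Smim36 (0.94) and Eea1 (0.93). Over all 35 libraries they were Ccl3 (0.97), Lag3 (0.96), Sh3rf1 (0.95), the cytokine gene Il21 (0.94), Ccl4 (0.94), Adgrg1 (0.93), Rgs16 (0.93) and the osteopontin gene Spp1 (0.93). Eomes (0.95) would take rank 4 there.

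A list of 41 further genes of the pathway, in 6 groups, was followed through the same comparisons. In HP1α WT Tconv, 12 rose and 5 fell with Treg out of 38 tested, beside the 3.54% and 2.43% of all genes given above. Of 12 Tr1 surface and effector genes, 6 rose and 2 fell. The MHC class II receptor gene Lag3 went from 0.802 ± 0.257 CPM to 56.1 ± 10.6 CPM (SD, n = 3 each, log2 fold change 6.15, SE 0.319, adjusted p = 0.000309), Havcr2, the gene of the inhibitory receptor TIM-3, from 6.04 ± 1.49 to 42.6 ± 1.47 CPM (2.85, adjusted p = 0.000922), and Ctla4, that of the inhibitory receptor CTLA-4, from 64.2 ± 4.12 to 333 ± 40.3 CPM (2.42, adjusted p = 0.00052). Itga2, the integrin chain CD49b that marks Tr1 cells together with LAG-3, fell from 24.5 ± 2.96 to 3.48 ± 0.66 CPM (-2.77, adjusted p = 0.00122). The surface pair of Tr1 cells thus moved apart in these cells.

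Among the factors that bind or control Il10, 2 of 10 rose and 3 fell, and of the 3 factors opposed to Prdm1 2 rose. Il21, a cytokine gene, was the 1 called among 5 tested genes of the IL-27 and IL-21 axis, and none of the 6 genes of the IL-10 receptor and its signalling was called. It went from 3.58 ± 1.83 to 221 ± 106 CPM (log2 fold change 5.98, adjusted p = 0.00212). Of the 4 AHR targets Tiparp was not called (-0.62, adjusted p = 0.0624). Cyp1a1, the classical AHR-induced cytochrome, was singled out after its values were seen, and it passed the filter through the libraries with Treg alone, so that its place among the 12 is no result. It was at 1.23, 1.86 and 1.89 CPM in WT with Treg and at 0 in each of the 3 WT libraries without, at least 20.3-fold higher against the limit of 3 counts in a library. It was also at 0 in the 3 HP1α KO libraries with Treg, which is at least 22.1-fold lower.

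Between HP1α KO and WT with Treg, edgeR called 2 of 38 tested list genes, both lower (0.08% of all genes), with 19 at an unadjusted p under 0.05 (12.1% of all genes), and DESeq2 called 10 (3.83%). They were the Tr1 surface genes Lag3 (5.98 ± 2.33 CPM in KO, log2 fold change -3.25, SE 0.339, adjusted p = 0.0328) and Havcr2 (9.98 ± 3.03 CPM, -2.12, SE 0.257, adjusted p = 0.0434). The median over the 12 Tr1 genes was -1.07, against -0.01 over all genes tested. The call of Lag3 was lost without KO replicate 1 (0.216) or 3 (0.208) or WT replicate 1 (0.17) or 2 (0.0928), and that of Havcr2 without these 4 (0.231, 0.208, 0.208 and 0.102) or KO replicate 2 (0.0581). The Treg effect of Lag3 was smaller in the KO by -2.95 (SE 0.456, adjusted p = 0.0371), the only list gene called in the interaction (0.0581% of all genes called lower), and 7 of the 12 fits with a library left out lost that call (up to 0.114).

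In HP1α KO cells 2 of 37 list genes were called with Treg, both higher (0.18% of all genes). They were Lag3 (log2 fold change 3.2, adjusted p = 0.0233) and the inhibitory receptor gene Pdcd1 (1.91, adjusted p = 0.00755). Lag3 lost its call in 5 of the 6 fits without a library, all but that without KO replicate 2 with Treg, with adjusted p up to 0.114. Pdcd1 lost it without KO Tconv replicate 3 (0.0517). In the HP1γ line edgeR called no list gene with Treg. In WT 6 of 37 had an unadjusted p under 0.05 (6.89% of all genes) and DESeq2 called 1 (0.333%), and in KO 13 of 38 did (7.62%) and DESeq2 called 6 (1.62%). In the other comparisons of KO with WT edgeR called none either. In HP1α naive cells 2 of 32 had an unadjusted p under 0.05 (1.87% of all genes) and in HP1α Tconv 4 of 37 (8.53%), and DESeq2 called 0 in both. In HP1γ cells these were 4 of 32 in naive cells (5.78%), 11 of 37 in Tconv (8.42%) and 15 of 37 in Tconv with Treg (11.8%), of which DESeq2 called 1 (0.208%), 2 (1.43%) and 10 (3.57%).

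In HP1γ Tconv with Treg the KO libraries held 59.4 and 21.6 CPM of Lag3 against 7.41, 3.12 and 2.64 CPM in WT. Its log2 fold change was 3.2 (SE 0.604, adjusted p = 0.192), and the median of the 12 Tr1 genes was 0.69. Between the lines 9 of 39 tested list genes differed in their KO effect, all higher in the HP1γ line (1.78% of all genes), 5 of them Tr1 surface genes. The 4 with the lowest p were Lag3 (6.44, SE 0.737, adjusted p = 0.0053), Pdcd1 (4.47, SE 0.665, adjusted p = 0.0137), Havcr2 (4.96, SE 0.787, adjusted p = 0.0149) and Il21 (5.66, SE 0.898, adjusted p = 0.0149). Lag3 kept its call whichever library was left out, and with the left-out library put back none of the 4 was called (adjusted p = 0.053 to 0.0581). All but Lag3 lost the call without HP1α KO replicate 3 (0.0506 to 0.0542), Pdcd1 and Il21 without HP1γ KO replicate 1 (0.0561 and 0.0776), and Havcr2 and Il21 without HP1γ WT replicate 2 (0.0515 and 0.0514).

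**Figure D5:**
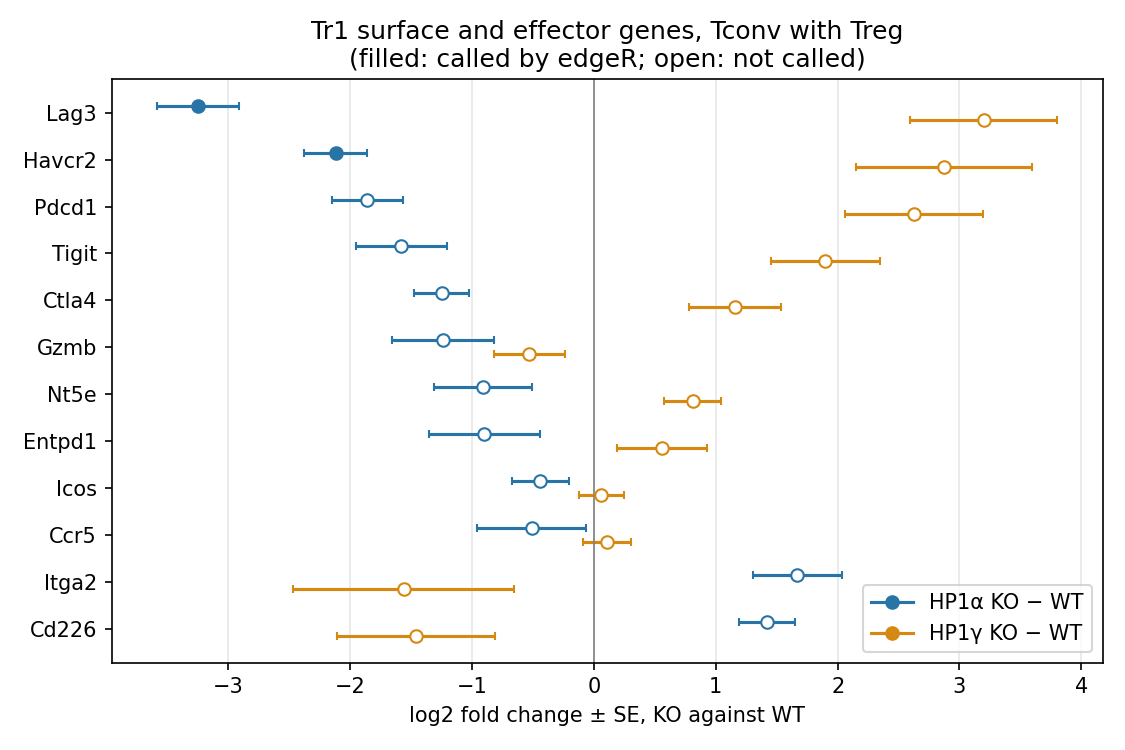
Log2 fold change with SE, KO against WT, of 12 Tr1 surface and effector genes in Tconv with Treg (blue HP1α line, orange HP1γ line; filled, called by edgeR). Lag3 and Havcr2 are called lower in HP1α KO (-3.25 and -2.12), and their HP1γ values lie at 3.2 and 2.87 without a call.

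The WT Treg effect differed between the lines for 8 of 38 list genes, 6 higher in the HP1α line (0.701% of all genes) and 2 lower (0.858%). It was larger in the HP1α line for Havcr2 (3.28, adjusted p = 0.00377), Lag3 (4.81, adjusted p = 0.00933) and Il21 (4.27, adjusted p = 0.0129), and lower for Cd226 (-2.12, adjusted p = 0.00642), an activating receptor gene that marks Tr1 cells too. From naive cells to Tconv, 18 to 21 of 37 list genes were called higher in the 4 comparisons (12.4% to 15.7% of all genes), a count that includes genes near 0 in naive cells, which could pass the filter only through Tconv. Only 3 to 4 were called lower, a share near the 7.24% to 10.2% of all genes. Among them was Bach2, a repressor opposed to Prdm1, which went from 149 ± 23.5 to 10.2 ± 0.607 CPM (SD, n = 3 each) in HP1α WT.

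Markers of other cells moved with some of these results, and their part was not tested. Most of the 10 Treg markers had a higher mean in Tconv without Treg than in naive cells. In HP1α WT, Tnfrsf4 had a mean of 5.14 CPM in naive cells and 114 CPM in Tconv, Tnfrsf18 69.1 and 239, Itgae 0.236 and 84.4, Il2ra 3.16 and 41.2, and Ctla4 16.8 and 64.2. The summed level of the 10 was 1410 to 1630 CPM in HP1α WT with Treg, 586 to 970 CPM in HP1α KO with Treg, 628 to 953 CPM in HP1α WT Tconv, 744 to 827 CPM in HP1γ WT with Treg, and 2020 and 1070 CPM in the 2 HP1γ KO libraries with Treg. All 10 had a mean of 1 CPM or more in each of the groups with Treg. Foxp3, the defining Treg factor, was at 13.3, 68.7 and 18 CPM in HP1α WT with Treg and at 8.39, 35 and 16.3 CPM in KO, groups that overlapped. It was highest in replicate 2 of each, and at 8.51 and 11.4 CPM in the HP1γ KO libraries with 222 and 21.3 CPM of Il10. Of the other markers, Ikzf2 and Ctla4 had their highest group means where Il10 did, whereas Il2ra was lower there. It was at 42.2, 41.8 and 39.5 CPM in HP1α WT Tconv and at 10.5, 27.6 and 14.8 CPM in HP1α WT with Treg. In HP1γ KO with Treg Il2ra was at 13.7 and 22.3 CPM. Ikzf2, the gene of the Treg factor HELIOS, was at 179, 154 and 326 CPM in HP1α WT with Treg and at 151 and 63.7 CPM in HP1γ KO with Treg, and Ctla4 at 291, 337 and 371 CPM and at 695 and 309 CPM. With Treg in HP1α WT 4 of the 10 were called, all higher (3.54% of all genes), and 7 of the 10 had a positive log2 fold change. In the line difference of the KO effect 5 were called, all higher in the HP1γ line (1.78% of all genes), and 8 of the 10 were positive.

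The 10 myeloid markers, of which 7 to 9 reached a mean of 1 CPM in the groups with Treg, summed to 24.6 to 60.2 CPM in HP1α WT with Treg and to 212 to 583 CPM in HP1α KO with Treg, opposite in direction to Il10. For the Treg effect in HP1α WT they went the same way as Il10, from 6.82 to 7.86 CPM without Treg. There 3 of 6 tested were called, all higher (3.54% of all genes, median log2 fold change 2.33). Markers near 0 without Treg could pass the filter only through the libraries with Treg, so that this count is no result. In the HP1γ line with Treg they summed to 106 to 137 CPM in WT and to 279 and 90.4 CPM in KO. The 6 erythroid markers ran from 1.8 to 3.48 CPM in HP1α WT Tconv, from 2.62 to 49.9 CPM in HP1α WT with Treg and from 113 to 703 CPM in the KO. They ran from 114 to 6140 CPM in the HP1γ groups with Treg. In the HP1γ line replicate 1 was highest in every grafted group, at 4970 (WT) and 3370 CPM (KO) without Treg and 3460 (WT) and 6140 CPM (KO) with it. In Il10 replicate 1 was the lowest of its group without Treg (2.01 CPM in WT, 9.89 CPM in KO) and the highest with Treg (15.8 and 222 CPM). Elane, which marks neutrophil precursors, was at 0 in all HP1α WT libraries with Treg, and Elane and Mpo were at 0 in both HP1γ KO libraries. The 10 B and plasma cell markers stayed between 103 and 217 CPM and the 4 CD8 or NK cell markers between 7.08 and 27.5 CPM in the groups with Treg.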

How the data were processed

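SMART-Seq libraries of CD4+ T cells were sequenced as paired reads. The authors ran nf-core/rnaseq, in which Trim Galore with Cutadapt trimmed, STAR aligned to GRCm39 (Ensembl genes) and Salmon quantified. Per the authors' methods the deposited table holds each gene's estimated count from Salmon, with no scaling for depth. Salmon divides reads between genes, and 82.9% of the values were whole numbers. Depth was 37029519 to 63042245 counts per library. Intervals of counting error are not given, and the limit of 3 counts covers counting error only.

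Columns were matched to samples by name, and samples to groups by their titles. No per-sample column was left unmapped (0). Counts were rounded, and edgeR 4.0.16 in R 4.3.3 (filterByExpr, TMM, glmQLFit with robust estimation, glmQLFTest) was run on all genes with the libraries of the groups compared, with Benjamini-Hochberg adjustment. SE was taken as the log2 fold change over the root of its F value. DESeq2 1.42.0 was an alternative, and the authors used an earlier version of that tool. Further alternatives were RLE size factors, no filter, no threshold on the fold, a joint fit of all 35 libraries, a block for replicate number, inclusion of the left-out library and omission of each library. Scripts were tested on simulated data.

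The members, gene lists and comparisons were chosen with earlier results of these data known. Named were the 7 members in each comparison and, of the list of 41 genes, up to 4 called genes with the lowest p. The genes most like Il10 were the 8 with the highest Pearson r of log2(CPM + 1) among genes averaging 5 CPM or more, leaving out members, receptor segments, predicted genes, RIKEN clones and pseudogenes.

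Libraries with equal replicate numbers were taken to be paired if their deviations from group means correlated above 0.1 in every pair, with 3 pairs at least. The main fits held no block for such pairs, and the block was an alternative only. So it was for HP1α KO against WT in naive cells (0.495 to 0.828) and for the Treg effect in HP1γ WT (0.154 to 0.458). The block changed no call of a member in either. Over all 15549 genes tested in HP1α naive cells, 12 were called with the block and 0 without it. Promoters are from RefSeq (GRCm38.p6) and positions from GENCODE vM39 (GRCm39). ATAC-seq of the study was not analysed here.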

Additional observations from a re-analysis of the deposited data

Results flagged for a closer look

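The KO effect in Tconv with Treg differed between the HP1γ and the HP1α line, as tested in 1 model, by 7.5 on the log2 scale for Il10 and by 2.25 for Maf.

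In 3 further pairs of comparisons every library of a group lay on one side in one comparison and on the other side in the other, a difference that was not tested. Taken singly, these comparisons left 13.9% to 29.4% of all genes without overlap, and no such share was taken for HP1γ naive cells. The pairs are therefore no result about these genes. For Il10, the KO against WT difference in HP1α Tconv with Treg was lower than that in HP1γ Tconv by -6.2 (log2 fold changes of -3.45 and 2.75). For Maf, the KO against WT difference in HP1γ naive cells and that in HP1γ Tconv with Treg (log2 fold changes of -0.48 and 0.76) were -1.24 apart. Its naive levels lay close together, at 2.17 to 3.94 CPM in KO and 3.98 to 5.22 CPM in WT. For Il27ra, the Treg effects in HP1α KO and HP1γ KO (log2 fold changes of -0.24 and 0.4) were -0.64 apart.

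The library left out, replicate 3 of HP1γ KO Tconv with Treg, exceeded the highest of the 3 HP1γ WT libraries with Treg in 4 members. It held 352 CPM of Maf (WT at most 131 CPM), 386 CPM of Prdm1 (69 CPM), 429 CPM of Eomes (58.6 CPM) and 428 CPM of Il27ra (386 CPM). Its Il10 level of 10.1 CPM lay within the WT range of 1.46 to 15.8 CPM. The study had found its GC content, share of reads in exons and bias between transcript ends abnormal, and how far this shaped these levels was not tested.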

How the results depend on the processing

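RLE size factors and no threshold on the fold left each of the 18 counts of called members within 1.5 times its value, and RLE size factors changed no call of a named gene. In HP1α Tconv with Treg, KO against WT, 0 members were called by edgeR, 3 by DESeq2, 2 with all 35 libraries in 1 fit and 1 (Il10, adjusted p = 0.0449) with the replicate block. In HP1γ Tconv, KO against WT, the count of 0 became 2 by DESeq2 and 1 (Il10, adjusted p = 0.0288) with the replicate block, and with Treg it became 1 (Il10, adjusted p = 0.0186) with all 35 libraries. The Treg effect in HP1α KO went from 0 to 1 by DESeq2 and with the replicate block (Il10, adjusted p = 0.0251), and the interaction in the HP1α line from 0 to 2 by DESeq2. The line difference in KO effect went from 2 to 4 by DESeq2, to 5 with all 35 libraries, to 1 without the filter and to 0 with the left-out library put back. The difference of the WT Treg effects went from 0 to 2 by DESeq2 and to 1 with all 35 libraries. Without the filter Il10 lost its call for the Treg effect in HP1α WT (adjusted p = 0.0831). The cause was not tested.

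With each library left out, the count of called members ran from 1 to 4 for the Treg effect in HP1α WT (4), from 0 to 3 for the line difference in KO effect (2) and from 0 to 1 for the difference of the WT Treg effects (0). The other counts stayed within 1.5 times. The interaction of Il10 in the HP1γ line turned from 1.31 to -1.22 without HP1γ KO replicate 1 with Treg, and reached 2.57 without WT replicate 1 with Treg. For HP1γ KO against WT with Treg the deviations of equal replicate numbers correlated at 0.222 to 0.454, but only 2 pairs existed. In comparisons that did not meet the rule for pairs, it is not known whether equal replicate numbers mark pairs. There the replicate block also took Maf out of the calls of the Treg effect in HP1α WT (adjusted p = 0.0567), added Eomes to the line difference in KO effect (adjusted p = 0.0321), and lost Lag3 (0.0555) and Havcr2 (0.0872) in HP1α KO with Treg and Lag3 in the HP1α interaction (0.0695). Of the 8 genes most like Il10, Spearman correlation shared 4 over 35 and 3 over 23 libraries, and a mean of at least 1 CPM shared 5 over 35. Depth limited Il10 in naive cells, where no difference was detectable.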
